A study of Canis lupus familiaris with 3 samples.

Results

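The genes described here encode the microtubule system: tubulins, the factors that fold and nucleate them, kinesins, dynein, dynactin, and proteins that bind along microtubules or at their growing ends. They were chosen by a rule on gene symbols, which was set with earlier results of these data known. Of 46 such genes named on the array, 43 had a value on all 3 arrays, among 5508 named genes tested. DYNLRB1 and MAP2 had no value on any array, and KIFC2 had values only on the array with E47 in Cy3, at a mean log2 ratio of −0.47. A set of 7 mitotic kinesins, KIF11 among them, was left out by the rule. The cells were MDCK, an epithelial line from dog kidney, and each array of human cDNA clones compared amplified RNA of E47 transfectants with that of MDCK-CMV control cells. All cells grew in the same medium with serum, antibiotics and fungizone. E47 is a helix-loop-helix transcription factor that represses E-cadherin. Extraction 1 of E47 RNA was hybridised once, with E47 in Cy5. Extraction 2 was hybridised as a dye swap, with E47 in Cy3 on one array and in Cy5 on the other. Whether the transfectants are 1 clone or a pool, and which promoter drives E47, was not stated in the labels. The culture notes name E47_1 and E47_2 cells where the design text speaks of extractions. Nothing states that the extractions came from separate cultures, so the spread between them may be technical. The p-values rest on that spread, though only in part on a gene's own. The limma test gave a prior variance, taken from the same spread over all features, more weight than a gene's own variance. The degrees of freedom were 2.71 for the prior and 1 for the gene.

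Microtubules are hollow polymers of alpha- and beta-tubulin dimers with a fast-growing plus end and a minus end. Most kinesins walk toward the plus end, while cytoplasmic dynein, together with dynactin, carries cargo toward the minus end. In polarised epithelial cells such as MDCK, many microtubules run along the apical to basal axis with their minus ends near the apical surface, and cells that lose epithelial polarity rearrange them.

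Every value is a log2 ratio of E47 over control as deposited. This direction is likely rather than stated: it was taken from which channel the labels list first, and CDH1, the E-cadherin gene, was at −3.59 under it. TCF3, the gene that encodes E47, was at −0.29 and did not pass; whether its clone overlaps the introduced cDNA is unknown, so it checks nothing. With the opposite direction, every gene called higher would be lower. The base of the logarithm is likewise not stated, and natural logarithms would mean larger folds than those given here. The arrays had a value for 25537, 25282 and 24771 of 27648 spots. Column medians lay between −0.0051 and 0.0027, and across named genes the arrays, which share the control and the clones, correlated with r between 0.69 and 0.85. The number of arrays limits the precision. Ratios hold no expression level, and the array measures pooled RNA, so fewer cells of a kind and less RNA per cell cannot be told apart.

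Among the 43 genes, 10 rose and 2 fell in E47 cells. The genes that rose were TUBA1A, TUBA8, TUBB4B, TUBBP5, TUBB and TUBA3C among the tubulins, the kinesin KIF20B, the dynactin subunit DCTN6, and the microtubule-binding proteins MAP1B and MAPRE1. MAP7 and CLIP1, which also bind microtubules, fell. The limma test against 0 was applied to all features with Benjamini-Hochberg adjustment, and a gene passed at an adjusted p under 0.05. By that rule 12 of 43 members passed, against 9.19% of all named genes. Of the 12, 6 were among the 13 alpha- and beta-tubulin genes and 6 among the 30 other members. Clones of similar tubulins may bind shared dog transcripts, which was not tested, so the 43 values may not be separate. The share of named genes that rose was 5.34% and the share that fell was 3.85%. At an unadjusted p under 0.05 there were 29 members, against 35.6% of named genes. The median log2 ratio of the members was 0.34 and that of all named genes −0.02. The alpha- and beta-tubulins had a median of 0.80, and the 30 other members 0.16. On every array, 32 members lay above 0 and 7 below 0, where the shares over named genes were 30.6% and 32.8%. The mean was at least 2-fold from control in 7 members, against 4.76% of named genes.

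The count of calls depended on the array used for extraction 2. Without its Cy5 array 3 members passed, TUBA8, MAP1B and MAP7, while 1.98% of named genes did. Without its Cy3 array 18 members passed, and 16.7% of named genes. That setting leaves E47 in Cy5 on every array, so dye and E47 cannot be told apart there. The 9 members that lost their call without the Cy5 array had adjusted p-values between 0.0509 for TUBB4B and 0.102 for CLIP1, and each kept its direction.

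**Figure D1:**
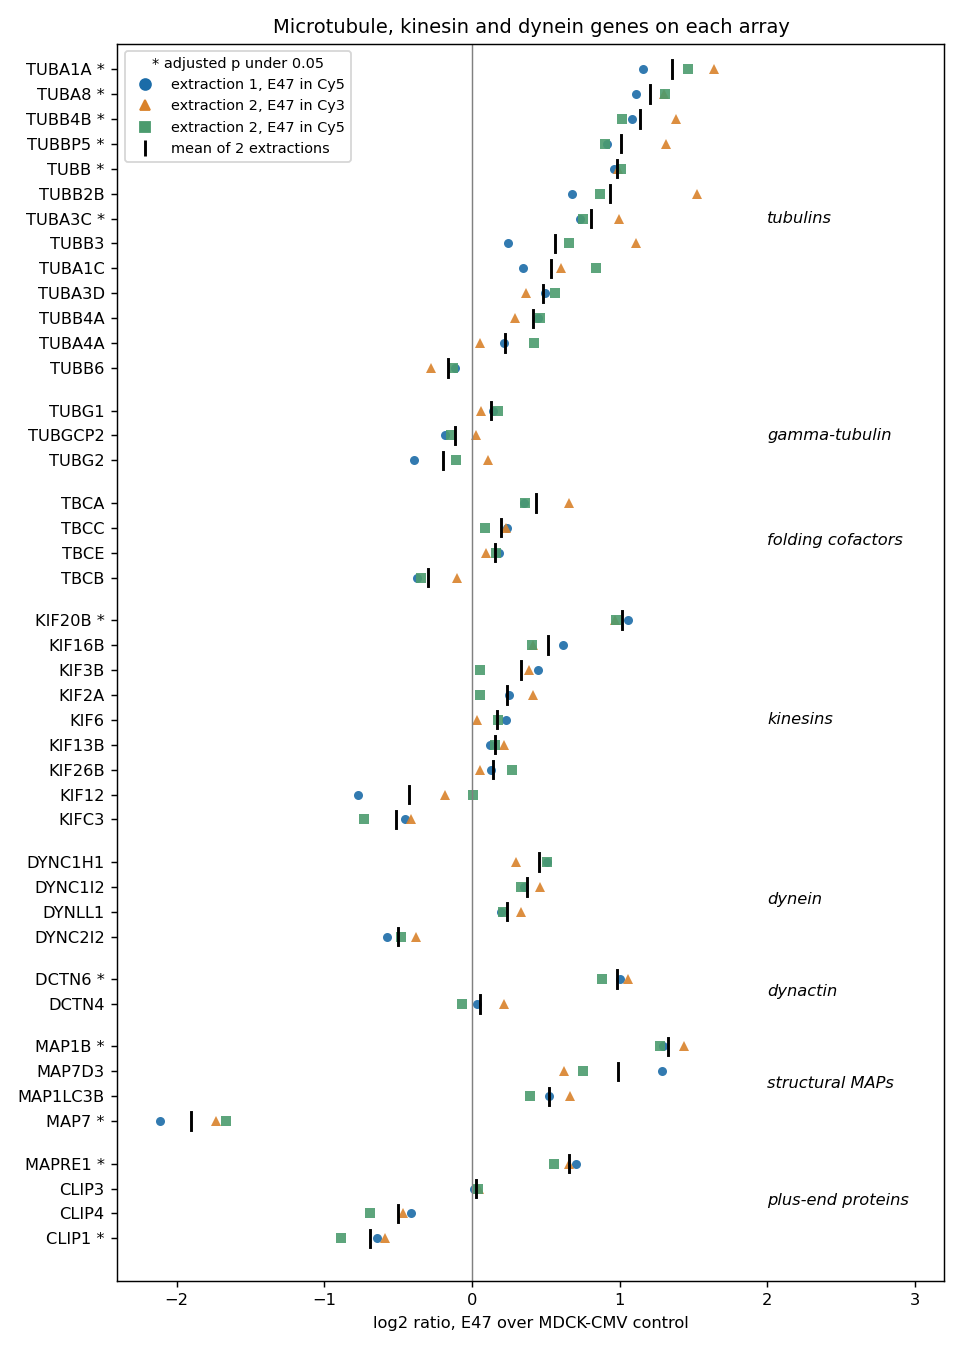
Log2 ratio of E47 over control (x axis) for each of the 43 genes (y axis), grouped by role. Symbols are the 3 arrays, bars the mean of 2 extractions, and asterisks the 12 genes that passed; most tubulins lie right of 0, and MAP7 stands alone below −1.

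Of 6 measured alpha-tubulin genes 3 rose, against 5.34% of named genes. All 6 lay above 0 on every array, against 30.6% of named genes. TUBA1A, the alpha-tubulin prominent in developing neurons, gave 1.16 in extraction 1 and 1.64 and 1.46 on the Cy3 and Cy5 arrays of extraction 2. Extraction 1 was the lowest of the 3 arrays, and none came near 0. Its mean was 1.35 ± 0.13 (moderated SE, n = 2 extractions), 2.56-fold higher in E47 cells (adjusted p = 0.0254). Scaling the arrays to 1 spread moved the adjusted p to 0.0601. TUBA8, a divergent alpha-tubulin, gave 1.11, 1.30 and 1.31 in the same order of arrays. The pair from extraction 2 differed by only 0.01, and the mean was 1.21 ± 0.10 (moderated SE, n = 2; adjusted p = 0.0212).

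TUBA3C, an alpha-tubulin best known from testis, gave 0.74, 1.00 and 0.75, with the Cy3 array the highest. The mean was 0.80 ± 0.09 (moderated SE, n = 2) at an adjusted p of 0.0311. It lost its call with scaled arrays, at 0.0589, and with the median over its spots, at 0.0542. TUBA1C, a widely expressed alpha-tubulin, had array means of 0.35, 0.61 and 0.84. Its gene mean was 0.53 ± 0.13 (moderated SE, n = 2), and with an adjusted p of 0.0942 it did not pass. Its low value in extraction 1 came from 1 of 2 neighbouring spots, which read −0.09 while the other read 0.78. TUBA3D and TUBA4A were at 0.48 and 0.23 and did not pass. The dog gene table holds neither TUBA3C nor TUBA3D. Human clones of such similar genes may bind more than 1 dog transcript, which was not tested, so the 6 values may share transcripts.

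Among 7 beta-tubulin genes 3 rose and 4 did not pass, where 5.34% of named genes rose. On every array 6 were above 0, against 30.6% of named genes. As with the alpha-tubulins, these clones may share dog transcripts, which was not tested. TUBB4B, a broadly expressed beta-tubulin, gave 1.08, 1.38 and 1.01, the Cy3 array being the highest. The mean was 1.14 ± 0.09 (moderated SE, n = 2), or 2.21-fold, at an adjusted p of 0.0203. TUBB, the main beta-tubulin of many dividing cells, gave 0.96, 0.99 and 1.01. Its arrays lay close together, with a mean of 0.98 ± 0.08 (moderated SE, n = 2) and an adjusted p of 0.0227, although its clones did not. TUBBP5 is annotated from a human beta-tubulin pseudogene, and the dog table does not hold it. Its spots gave 0.91, 1.31 and 0.90, with a mean of 1.01 ± 0.10 (moderated SE, n = 2). The adjusted p was 0.0251, and the call was lost with scaled arrays, at 0.0576.

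The other 4 beta-tubulins did not pass. TUBB2B, a beta-tubulin of developing neurons, gave 0.68, 1.52 and 0.86, so the Cy3 array stood 0.66 above the Cy5 array of the same RNA. Its mean was 0.94 with a 95% interval of 0.48 to 1.39, not adjusted for multiple tests, and an adjusted p of 0.0576. The dog table does not hold TUBB2B under this symbol. TUBB3, the beta-tubulin used as a marker of neurons, gave 0.24, 1.11 and 0.66, a spread wider than its mean of 0.57, at an adjusted p of 0.143. TUBB4A was at 0.41 and did not pass. TUBB6 was the exception in direction among the 13 alpha- and beta-tubulin genes: it gave −0.11, −0.27 and −0.13, with a mean of −0.16, a 95% interval of −0.40 to 0.09 and an adjusted p of 0.275. A single spot carried that value.

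In TUBB, MAP1B and MAP1LC3B, 3 of 8 members with more than 1 clone, the positions differed by at least 1.02 log2 units. In the other 5 members they differed by at most 0.19. The median difference between neighbouring spots of a member was between 0.03 and 0.05 on the 3 arrays. One TUBB clone gave 1.84, 2.09 and 1.80, while a second, printed at 2 positions, averaged 0.39 and 0.33. The lowest array of the first clone lay above the highest of the second, and the median over TUBB spots was 0.41, at an adjusted p of 0.0739. MAP1B showed the same layering, with 1 clone at 2.30, another at 1.13 and 1.03 in its 2 positions, and the remaining clone at 0.69. In TUBA3C a single clone was printed at 3 positions and gave 1.27, 0.68 and 0.46. Its order of positions was the same on each array, so a gene mean here averages values that differ by position as well as by clone. TUBB4B and TUBA8, in contrast, each had 2 clones within 0.09 and 0.19 of each other. Which dog transcript each clone bound was not tested.

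Of 7 members that nucleate microtubules or assemble the tubulin dimer none passed by limma, and 2 were at an unadjusted p under 0.05; the share of named genes that passed was 9.19%. Gamma-tubulin sits at the minus end and seeds new microtubules. TUBG1, TUBG2 and the ring complex subunit TUBGCP2 had means of 0.13, −0.19 and −0.12. TUBG2 gave −0.39, 0.11 and −0.11, so its arrays fell on both sides of 0. Its mean of −0.19 ± 0.13 (moderated SE, n = 2) had an adjusted p of 0.354 and a 95% interval of −0.57 to 0.18. Neither TUBG2 nor TUBGCP2 is in the dog table under its symbol. The cofactors that assemble the tubulin dimer were 4 in number, and none passed. TBCA, which holds folding beta-tubulin, gave 0.35, 0.66 and 0.36, all above 0, with a mean of 0.43 ± 0.09 (moderated SE, n = 2) and an adjusted p of 0.0804. TBCB, which binds alpha-tubulin, was at −0.30 with both clones below 0, and TBCC and TBCE were at 0.20 and 0.16.

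Of 9 measured kinesins 1 rose and 8 did not pass, a share near the 9.19% of named genes, around a median of 0.17. KIF20B, a mitotic kinesin needed for the completion of cell division, gave 1.06, 0.97 and 0.98. The 3 arrays differed by less than 0.1, and the mean was 1.02 ± 0.09 (moderated SE, n = 2), 2.02-fold higher, with an adjusted p of 0.0225. It rests on 1 spot with a value on all arrays. KIF11, the spindle motor that the rule left out, was at 1.17 and also passed.

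Kinesins of membrane traffic and cilia had smaller values. KIF16B, which moves early endosomes, was at 0.51 with an adjusted p of 0.0696. KIF3B, a motor of ciliary transport, gave 0.45, 0.39 and 0.05, and KIF2A, a kinesin that dismantles microtubule ends, gave 0.25, 0.41 and 0.05, the Cy5 array of extraction 2 being lowest in both. KIF6, KIF13B and KIF26B were at 0.17, 0.16 and 0.15. KIFC3, a minus-end motor found at epithelial adherens junctions, gave −0.45, −0.41 and −0.73. All its arrays were below 0, its mean was −0.51 with a 95% interval of −0.77 to −0.26, and its adjusted p of 0.0595 did not pass. KIF12, a kinesin of kidney and other epithelia, was at −0.77 in extraction 1 and at −0.18 and 0.01 in the dye swap. Its 2 spots in extraction 1 read −1.23 and −0.30, and the mean of −0.43 had an adjusted p of 0.221.

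None of 4 dynein genes passed, against 9.19% of named genes. Those of the main cytoplasmic dynein, 3 in number, lay above 0 on every array, against 30.6% of named genes. The heavy chain DYNC1H1, which carries the motor, gave 0.51, 0.30 and 0.51, with a mean of 0.46 and an adjusted p of 0.0684. The intermediate chain DYNC1I2 and the light chain DYNLL1 were at 0.37 and 0.23, and both were above 0 on each array. DYNC2I2, an intermediate chain of the separate dynein that works in cilia, lay opposite: it gave −0.58, −0.38 and −0.48, with a mean of −0.50 ± 0.09 (moderated SE, n = 2) and an adjusted p of 0.0635.

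Dynactin, the complex that makes dynein processive, was represented by 2 subunits of its pointed end. DCTN6 rose, at 1.00, 1.06 and 0.88 on the 3 arrays. The mean was 0.99 ± 0.08 (moderated SE, n = 2), 1.98-fold higher, at an adjusted p of 0.0225. DCTN4 gave 0.03, 0.22 and −0.07, around 0, with a 95% interval of −0.19 to 0.29. The difference between DCTN6 and DCTN4 was not tested. Without the Cy3 array of extraction 2 the mean of DCTN4 was −0.02.

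Proteins that bind along microtubules held the widest spread. MAP7, also known as ensconsin or E-MAP-115, stabilises microtubules in epithelial cells and recruits conventional kinesin. It gave −2.11 in extraction 1 and −1.74 and −1.66 in extraction 2, so even the array nearest to 0 was far below it. The mean of −1.90 ± 0.14 (moderated SE, n = 2; adjusted p = 0.0201) corresponds to a 3.74-fold lower ratio. In the order of all named genes from the lowest, MAP7 was number 18. Its 2 clones agreed in sign and size, at −1.82 and −1.99. MAP7D3, a relative of MAP7 in the same protein family, lay on the other side. It gave 1.29, 0.63 and 0.75, so that extraction 1 was about 0.60 above extraction 2, and its mean of 0.99 ± 0.18 (moderated SE, n = 2) had an adjusted p of 0.0617. It passed with scaled arrays, at 0.0409. The difference between MAP7 and MAP7D3 was not tested.

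MAP1B, a microtubule-stabilising protein best known from growing axons, gave 1.30, 1.43 and 1.27. The arrays lay close together, with a mean of 1.33 ± 0.08 (moderated SE, n = 2), 2.51-fold higher, and an adjusted p of 0.0197. Each of its 3 clones was above 0 on every array. MAP1LC3B shares an origin of its name with MAP1 light chains but acts in autophagosome formation. Its array means were 0.52, 0.66 and 0.39. The gene mean was 0.53 ± 0.08 (moderated SE, n = 2), and with an adjusted p of 0.0516 it did not pass. One clone, at 2 positions, gave 0.93 and 0.75, while the other gave −0.10 with arrays on both sides of 0. With the median over spots MAP1LC3B was at 0.75 and passed, at an adjusted p of 0.0313, whereas with clones averaged first it was at 0.37 and did not, at 0.0854.

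At growing plus ends the calls ran in both directions. MAPRE1 encodes EB1, the protein that tracks plus ends and recruits others to them. It gave 0.71, 0.66 and 0.55, with a mean of 0.66 ± 0.09 (moderated SE, n = 2), 1.58-fold higher, and an adjusted p of 0.0393. CLIP1, or CLIP-170, is a plus-end protein that links microtubules to membranes and binds EB1. It gave −0.64, −0.59 and −0.89, all below 0. The mean was −0.69 ± 0.09 (moderated SE, n = 2), 1.61-fold lower, with an adjusted p of 0.0361, and its call was lost with scaled arrays, at 0.0589. Its relative CLIP4 gave −0.42, −0.47 and −0.69 and did not pass, at an adjusted p of 0.0667. CLIP3, another relative, was at 0.03 with an interval of −0.21 to 0.27.

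Agreement between extractions varied by gene. The median absolute difference between extraction 1 and the mean of extraction 2 was 0.10 over the members and 0.13 over all named genes. KIF12 differed by 0.68 between extractions, TUBB3 by 0.64, MAP7D3 by 0.60 and TUBB2B by 0.52, and none of these 4 passed. TUBB3 and TUBB2B were higher in extraction 2, MAP7D3 in extraction 1, and KIF12 was more negative in extraction 1. Within the dye swap, 27 of 43 members were higher on the Cy3 than on the Cy5 array, against 60.3% of named genes. TUBB2B, TUBB3, TUBBP5, TUBB4B, KIF2A and KIF3B stood 0.33 to 0.66 higher on the Cy3 array, while TUBA4A stood 0.36 lower. For extraction 1, with no dye swap, dye and extraction cannot be told apart.

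**Figure D2:**
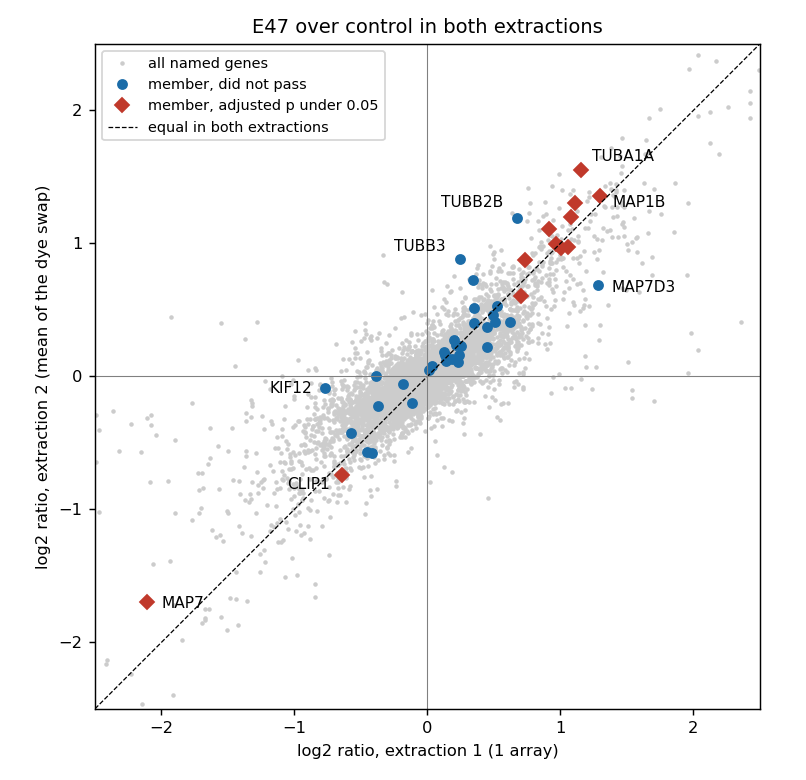
Log2 ratio in extraction 1 (x axis) against the mean of the dye swap of extraction 2 (y axis), with all named genes in grey and members in colour; genes beyond ±2.5 lie outside the frame. Most members lie near the line of equality, and TUBB3, TUBB2B, MAP7D3 and KIF12 lie away from it.

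Related genes of the same system were counted with the same test, to be read against the 9.19% of named genes that passed and the 5.34% that rose. Among 14 measured factors that sever or nucleate microtubules or alter their stability, 2 rose and none fell, around a median of 0.02. They were STMN1, which encodes the tubulin-sequestering protein stathmin, at 1.88 ± 0.11, and EML1, a microtubule-binding protein, at 1.39 ± 0.09 (moderated SE, n = 2 for both). Of 8 subunits of the chaperonin that folds tubulin and actin, CCT2 rose, at 0.97, and 7 did not pass, with a list median of 0.37 and 6 of 8 above 0 on every array. Of 4 mitotic kinesins left out by the rule, KIF11 alone passed, and KIF23, KIF20A and KIF2C were at 0.84, 0.46 and 0.10. No gene passed among 10 centrosome genes, 7 dynein regulators, 5 kinesin adaptors, 4 tubulin-modifying enzymes and 3 axonemal dynein genes by limma. Their medians were 0.13, −0.01, −0.23, −0.11 and 0.03. The kinesin adaptors MAPK8IP3 and MAPK8IP1 were the farthest from 0 in their list, at −0.65 and −0.47.

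**Figure D3:**
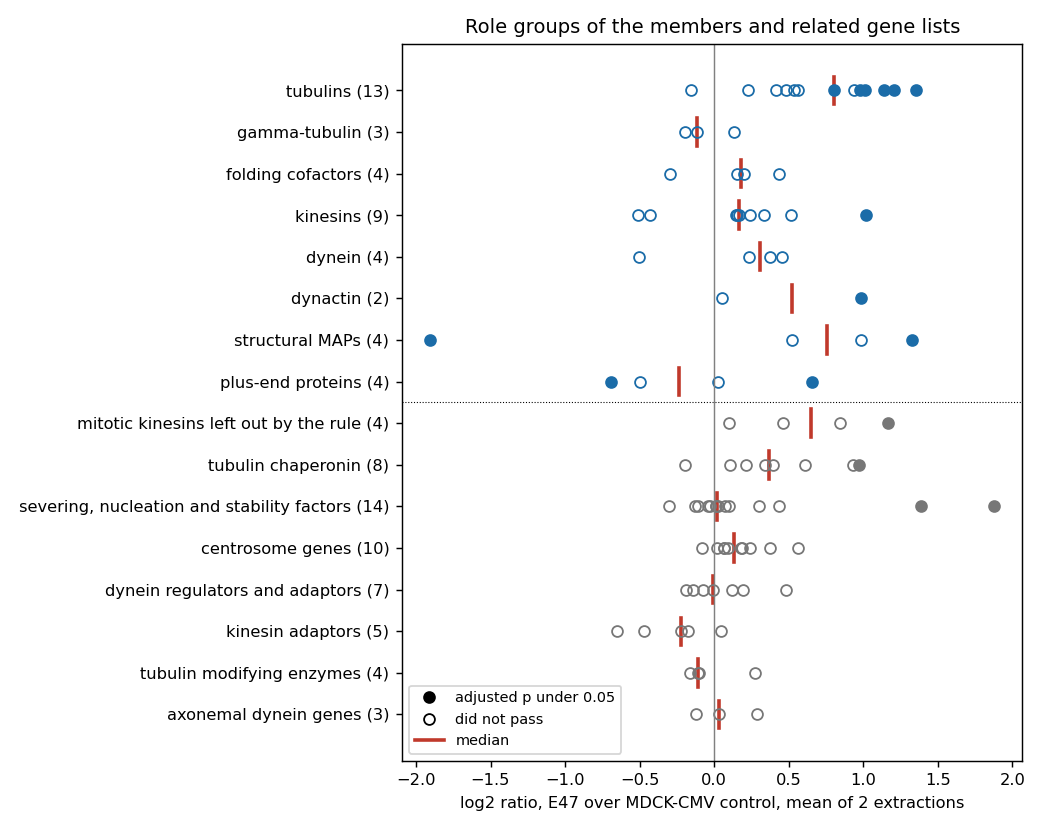
Mean log2 ratio (x axis) of each gene by role group of the members (blue, above the dotted line) and in related lists (grey, below it), with the number of genes in brackets. Filled points passed the test and red bars mark medians, which among the members' groups run from −0.23 for plus-end proteins to 0.80 for tubulins.

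Markers of cell types moved as follows on the same arrays. Of 7 measured epithelial markers 6 fell, against 3.85% of named genes, with a list median of −1.16. CDH16, at −0.14, did not pass. Of 4 measured fibroblast or mesenchymal markers 3 rose, against 5.34% of named genes, with a median of 1.48. THY1, at 0.02, did not pass. Among 4 leukocyte markers PTPRC rose, at 1.03, while LYZ, CD14 and CD68 were at 0.40, −0.04 and 0.03. None of 4 endothelial or 3 neuronal markers passed. The neuronal markers ENO2, SNAP25 and SYP were at −0.29, 0.23 and 0.17. The part of cell composition in the tubulin and MAP values was not tested.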

How the data were processed

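The values are log2 ratios in 1 column per array, as deposited by the authors in the series' value table. How the background was corrected and the ratios normalized is not given in the sources used; nor are log base and direction. Columns correlated positively, the dye swap included, so no sign was turned. Spots were named through the platform annotation, and 36 of 43 member symbols match the RefSeq table of dog genes (UU_Cfam_GSD_1.0), used for names only; TUBA1A is there as a synonym.

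Spots lacking a value on any array were dropped, which left 23275. Those of 1 gene were averaged, 8500 spots without a single symbol were kept one by one, and the dye swap was averaged. In R 4.3.3, limma 3.58.1 (lmFit, then eBayes) tested the mean of each of 14008 features against 0, with 1 residual degree of freedom and 2.71 prior degrees of freedom. The control is treated as a common reference, so its own spread is left out. The script was tested on simulated data. Intervals are at 95%, unadjusted. Figures used matplotlib 3.10.9.

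The members and lists were chosen with earlier results of these data known. Every member is named. Those that passed, the largest of a role group without calls, and members of at least 0.5 in size with spots of opposite sign are given in full; other per-array values were chosen after they were seen. Of each related list, up to 4 genes that passed are named, and others were added after their values were seen. Alternatives changed the replicates, normalization, spots, test, threshold and log base.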

Additional observations from a re-analysis of the deposited data

How the results depend on the processing

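Counts of members that passed are given as total, higher and lower, from a main result of 12, 10 and 2. With the 3 arrays as separate replicates they were 25, 20 and 5, although 2 of these arrays share their RNA, and 18.3% of named genes passed, against 9.19% in the main result. Without the Cy5 array of extraction 2 they were 3, 2 and 1 (1.98%). With named genes alone tested they were 24, 19 and 5 (21.3% of named genes), and with an adjusted p under 0.10 they were 25, 20 and 5 (22.6%). With an adjusted p under 0.01 they were 0, 0 and 0, since the smallest adjusted p of any feature was 0.0194; at an unadjusted p under 0.05 there were 29. With scaled arrays 9 passed and 1 of them was lower (7.93%). Without the Cy3 array of extraction 2, which leaves E47 in Cy5 on every array, the total was 18 (16.7%). In the other settings run (median centring, partial spots kept, median over spots, clones averaged first, robust eBayes) it was 11 or 12. There 8.55% to 9.35% of named genes passed. An alternative chosen after seeing the data kept only the 36 members with the same symbol in the dog table. Of these 9 passed, against 9.19% of named genes. TUBA1A, TUBA3C and TUBBP5 were gone, TUBA1A although the dog table holds it as a synonym.

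The members' median of 0.34 was 0.30 with 3 separate arrays, 0.37 without the Cy5 array, 0.32 without the Cy3 array and 0.24 for members with a dog symbol. It was 0.27 without replicate 1 and 0.25 without replicate 2. Read as natural logarithms, 12 members in place of 7 would be 2-fold or more from control. DCTN4, which did not pass, reversed to −0.018 without the Cy3 array, the only reversal among single-gene values recomputed with a test. With 1 extraction left there is no residual degree of freedom, so no count of calls was made. Signal over background is unknown, so dim spots could not be removed.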
